A study of Mus musculus with 16 samples.

Results

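Hepcidin and 9 further genes of iron handling were followed in mouse liver: the hormone genes Hamp and Hamp2, the inducer Bmp6, the sensors Hfe and Tfr2, the carrier Trf, the uptake receptor Tfrc, the exporter Slc40a1 and the storage subunits Fth1 and Ftl1. They were taken by name, as the entries of the count tables whose Ensembl identifiers carry these 10 symbols. All 10 were present among the 55416 genes listed, and all 10 had enough counts to be among the 14770 genes tested.

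Hepcidin is a peptide hormone made by hepatocytes that binds ferroportin, the product of Slc40a1, and causes its removal from cell membranes, so that less iron leaves macrophages and the gut. Liver endothelial cells signal iron load to hepatocytes through BMP6 and BMP2, which act on SMAD proteins at the Hamp promoter, and inflammation raises Hamp through IL-6 and STAT3. Inside cells, iron regulatory proteins bind iron-responsive elements, short hairpins in the untranslated regions of mRNAs. Binding in a 3′ UTR stabilises the mRNA, as for Tfrc, and binding in a 5′ UTR blocks translation, as for the ferritins and ferroportin.

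The livers came from 16 C57BL/6J mice, 4 in each of 4 groups, that were 8 weeks old when an adenovirus was injected into the tail vein. Ad-CTRL mice received a control adenovirus, and Ad-FAT10 mice an adenovirus for FAT10, a ubiquitin-like modifier encoded by Ubd. After 4 days each mouse was gavaged with the vehicle CMC or with 1 mpk of pemafibrate (Pema), an agonist of the nuclear receptor PPARα, at 18 h and 5 h before liver removal, and was fasted for the last 5 h. Which promoter drives FAT10 and which liver cells the virus reached is not given in the sources used here. Poly(A) RNA was sequenced from whole liver, so all cell types of the organ contribute. Values below are listed for mice 1 to 4 of a group, as CPM, the library-size scaled counts after TMM normalization.

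Regulatory sequences of the members are printed first. The first kind is the proximal promoter of the hepcidin pair, which the BMP and the IL-6 inputs share and in which the copies differ. RefSeq (GRCm38.p6) places both stretches on the minus strand of chromosome 7, Hamp at chr7:30944082-30944166 and Hamp2 at chr7:30924231-30924315. Capitals mark the BMP response element core GGCGCC of Hamp, with the letters of Hamp2 at the same place, and then the STAT element TTCNNNGAA.
Hamp: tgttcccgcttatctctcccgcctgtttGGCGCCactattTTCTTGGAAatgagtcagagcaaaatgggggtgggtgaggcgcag
Hamp2: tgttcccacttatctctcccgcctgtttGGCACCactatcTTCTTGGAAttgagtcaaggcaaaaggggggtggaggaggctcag
Of the 85 bases compared, 10 differ. Counted from 1 at the first printed base, with the letter of Hamp first, G32A falls in the BMP core, and no difference falls in the STAT element. In Hamp the core lies at -109 to -104 and the STAT element at -97 to -89 from the annotated start.

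Promoter windows were matched for 8 of the 10 members, and their 250 bases before the start were searched on both strands. GGCGCC was present in Hamp and Tfrc and in 9.59% of 32817 mouse promoter windows, TTCNNNGAA in Hamp and Hamp2 and in 7.01%, and the E-box CACGTG in Bmp6 and in 6.02%. No window of a member held the full DR1 repeat bound by PPAR, which 0.0335% of all windows held. Entries for Trf and Slc40a1 were not matched.

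The second kind is the iron-responsive element, printed here because it separates the members into those with a 3′ and those with a 5′ hairpin. Coding transcripts of GENCODE M21 (GRCm38) were searched for an unpaired C, an arm of 5 bases, the loop CAGTGN with a last base other than G, and an arm that pairs with the first, G-T pairs allowed. Such an element stood in a UTR of 123 of 21901 coding genes (0.562%) and of 4 of the 10 members. Capitals mark the loop.
Tfrc, 3′ UTR, element 1: cggaagCAGTGCcttcc
Tfrc, 3′ UTR, element 2: cgggagCAGTGTcttcc
Tfrc, 3′ UTR, element 3: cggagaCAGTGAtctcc
Tfrc, 3′ UTR, element 4: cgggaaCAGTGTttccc
Slc40a1, 5′ UTR: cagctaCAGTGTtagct
Fth1, 5′ UTR: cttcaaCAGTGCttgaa
Ftl1, 5′ UTR: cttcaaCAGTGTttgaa
The elements of Fth1 and Ftl1 differ at the last base of the loop alone, and Tfrc (chromosome 16) is the one member whose elements lie in the 3′ UTR. Slc40a1 lies on chromosome 1, Fth1 on chromosome 19 and Ftl1 on chromosome 7.

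Depth was 18663498 to 28898229 counts a library, so that a floor of 3 counts corresponds to 0.0890 to 0.176 CPM. Ubd was at 11.2 ± 3.05 and 27.5 ± 14.4 CPM in the Ad-CTRL groups under CMC and pemafibrate, and at 237 ± 116 and 459.8 ± 64.3 CPM in the Ad-FAT10 groups (SD, n = 4), and whether the virus carried the mouse gene is not given in the sources used here. The PPARα target Cyp4a14 rose with pemafibrate from 51.4 ± 43.5 to 13149 ± 2442 CPM in Ad-CTRL and from 83.7 ± 70.4 to 7168 ± 572 CPM in Ad-FAT10 livers. Mitochondrial transcripts took a median share of 7.27%, 6.11%, 5.19% and 4.37% of counts in the Ad-CTRL groups (CMC, then pemafibrate) and the Ad-FAT10 groups (same order), and the part of this in the results below was not tested. All 18 hepatocyte markers were detected, with a summed level of 107100 to 136430 CPM in the Ad-CTRL CMC group and 54732 to 73545 CPM in the Ad-FAT10 Pema group. Scaling matters for the adenovirus comparisons: with library totals in place of TMM the median log2 change of all genes was 0.28 under CMC and 0.34 under pemafibrate, and 6365 genes were called higher and 1061 lower under CMC, against 3316 and 2977 with TMM.

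**Figure D1:**
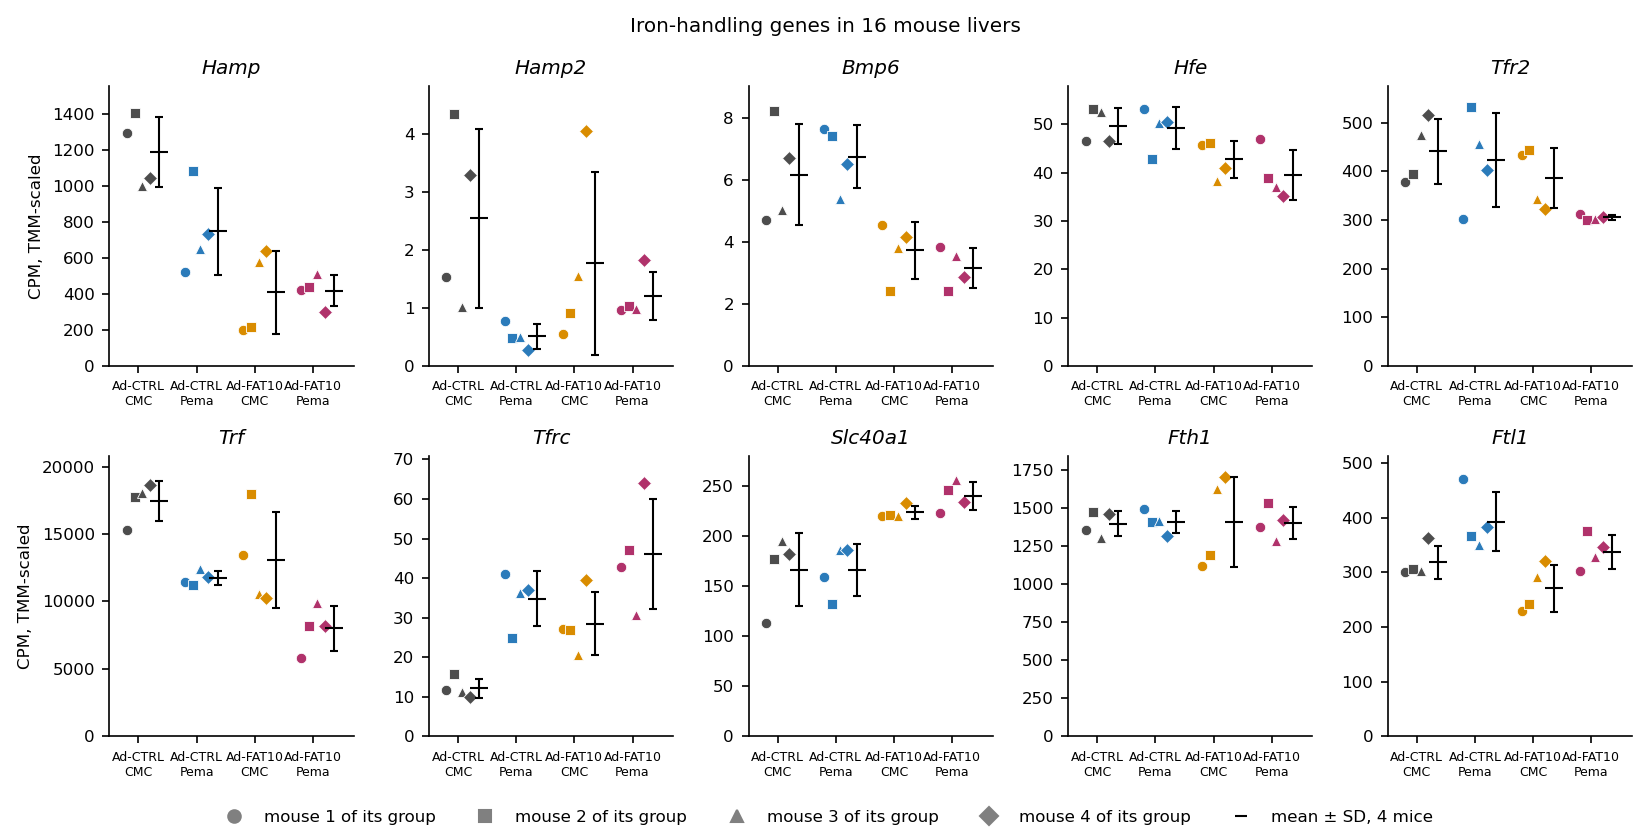
Level of each of the 10 genes in CPM (vertical axis, linear from 0) in the 4 groups, with 1 symbol per mouse and the mean ± SD of 4 mice in black. Hamp has its highest mean in the Ad-CTRL CMC group (1000.2 to 1404 CPM), Tfrc lowest there (9.98 to 15.7 CPM), and Fth1 has like means in all groups.

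The members spanned a wide range of levels. Per kilobase of annotated exon, Trf led in the Ad-CTRL CMC group with a level of 5253 ± 446 CPM per kb, followed by Hamp at 2890.1 ± 475, Fth1 at 403 ± 24.3, Ftl1 at 237 ± 22.0 and Tfr2 at 102 ± 15.2 CPM per kb (SD, n = 4). Slc40a1 at 18.5 ± 4.04 and Hfe at 13.9 ± 1.04 CPM per kb overlapped, as did Hamp2 at 4.36 ± 2.65, Tfrc at 1.96 ± 0.403 and Bmp6 at 1.58 ± 0.417 CPM per kb, each with its neighbour. In the Ad-FAT10 Pema group the order was the same down to Hfe, while Tfrc, at 7.46 ± 2.23 CPM per kb, stood above Hamp2 at 2.06 ± 0.713 and Bmp6 at 0.809 ± 0.165 CPM per kb. The length used joins all annotated exons of a gene, 9.0 kb for Slc40a1, 3.469 kb for Fth1 and 3.572 kb for Hfe. The coding transcripts printed from above had 3370 bases for Slc40a1 and 1494 for Fth1, and that of Hfe had 3572. The levels per kb, and the overlap of Slc40a1 with Hfe, therefore depend on the length chosen.

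A gene was called at an adjusted p under 0.05 in edgeR's quasi-likelihood test, adjusted over all genes tested. With pemafibrate, 3 of 10 members were called in Ad-CTRL livers, 1 higher and 2 lower, where 30.6% of all genes were called, and 2 of 10 in Ad-FAT10 livers, 1 higher and 1 lower, where 25.4% were. With Ad-FAT10, 4 of 10 were called under CMC, 2 higher and 2 lower, against 42.6% of all genes, and 6 of 10 under pemafibrate, 1 higher and 5 lower, against 41.7%. Of all genes, 16.2% were called higher and 14.4% lower with pemafibrate in Ad-CTRL livers, 12.9% and 12.5% in Ad-FAT10 livers, and with Ad-FAT10 22.5% and 20.2% under CMC and 21.2% and 20.5% under pemafibrate. The members were chosen with results known, so nothing particular to them is read from these counts. The groups did not overlap for 3, 2, 5 and 5 members in these comparisons, in the same order, and for 30.6%, 25.4%, 38.2% and 36.9% of all genes tested. For the difference between the pemafibrate responses of Ad-FAT10 and Ad-CTRL livers (the interaction), no member was called with edgeR or with DESeq2, against 0.156% of all genes with edgeR. An unadjusted p under 0.05 was found for 2 members with either tool. The share of all genes at that looser threshold was not counted, so these 2 cannot be set against the 0.156%. The comparisons share groups, so a group that is high or low enters several of them.

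**Figure D2:**
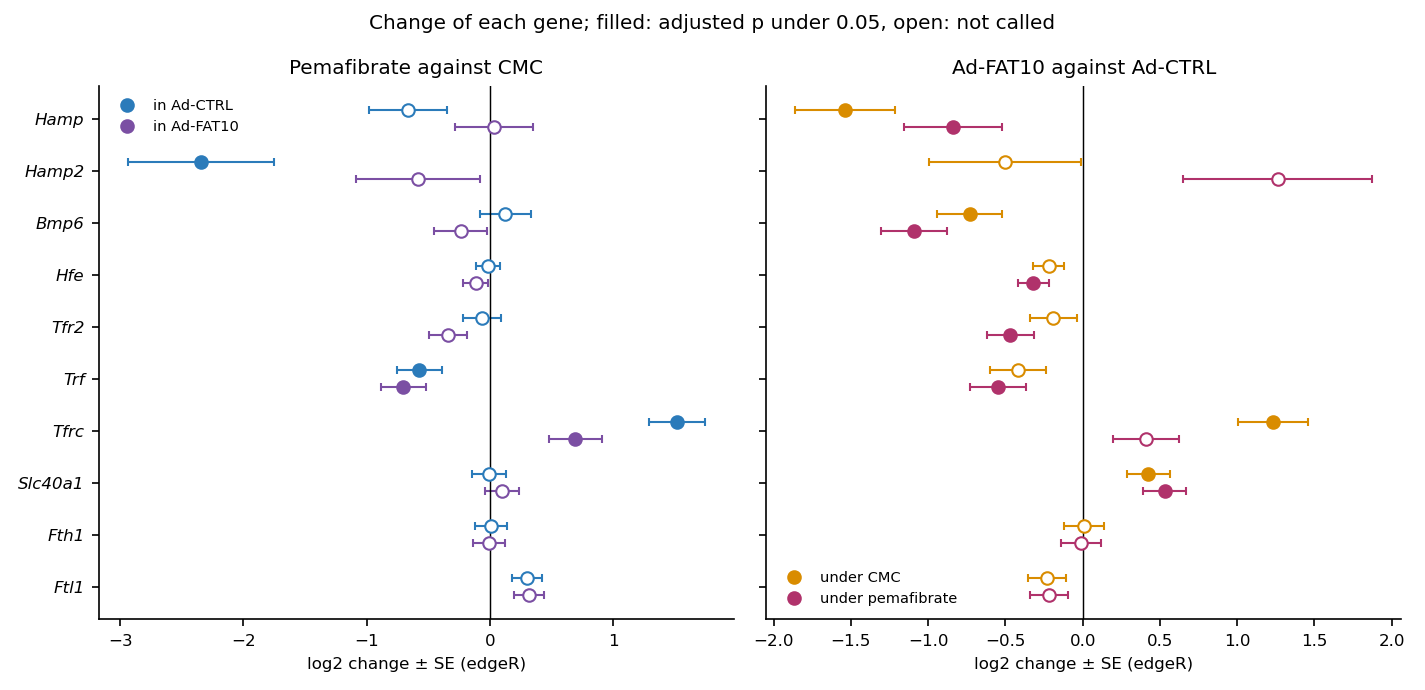
Log2 change ± SE (horizontal axis) of each gene with pemafibrate (left) and with Ad-FAT10 (right); filled points have an adjusted p under 0.05. Tfrc lies to the right in all 4 comparisons and Trf to the left, and Fth1 lies at 0 in each.

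Hepcidin was lower in Ad-FAT10 livers. Hamp stood at 1292, 1404, 1000.2 and 1043 CPM in the Ad-CTRL CMC mice and at 199, 218, 578 and 638 CPM in the Ad-FAT10 CMC mice. It stood at 523, 1082, 647 and 734 CPM in the Ad-CTRL Pema mice and at 421, 436, 512 and 301 CPM in the Ad-FAT10 Pema mice. Every Ad-FAT10 mouse lay below every Ad-CTRL mouse of the same treatment, under pemafibrate by a margin of 512 against 523 CPM. Under CMC the fall was 2.90-fold (log2 change -1.54 ± 0.32 SE, adjusted p = 0.00109), and the adjusted p did not exceed 0.00514 in 22 alternatives. Under pemafibrate it was 1.79-fold (log2 change -0.84 ± 0.32, adjusted p = 0.0419). That second call ended with DESeq2 (adjusted p = 0.0535) and with library totals (log2 change -0.46, adjusted p = 0.244). It also ended without 1 of Ad-CTRL Pema mice 2 (log2 change -0.60, adjusted p = 0.152), 3 (0.0507) or 4 (0.0687), or of Ad-FAT10 Pema mice 1 (0.0631), 2 (0.071) or 4 (0.115). The summed level of 18 hepatocyte markers was also lower with Ad-FAT10, without overlap. Under CMC it was 107100 to 136430 CPM in Ad-CTRL and 72143 to 89441 CPM in Ad-FAT10 mice. Under pemafibrate it was 87243 to 119040 and 54732 to 73545 CPM. The part of hepatocyte content in the lower Hamp was not tested.

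The response of Hamp to pemafibrate was not called. In Ad-CTRL livers the mean went from 1185 ± 195 to 746 ± 240.0 CPM with groups that overlapped (log2 change -0.67 ± 0.32, adjusted p = 0.126). It was called when only the groups compared were fitted (adjusted p = 0.0182) and with no filter on low counts (0.02). In Ad-FAT10 livers the means were 408 ± 232 and 417 ± 87.4 CPM (log2 change 0.03 ± 0.32, adjusted p = 0.961). The difference between these responses was 0.70 ± 0.45 on the log2 scale (adjusted p = 0.601).

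Hamp2 was a minor part of hepcidin mRNA, and it fell with pemafibrate in Ad-CTRL livers. It stood at 1.53, 4.34, 1.02 and 3.29 CPM under CMC and at 0.778, 0.481, 0.499 and 0.264 CPM under pemafibrate, with no overlap. The fall was 5.08-fold (log2 change -2.34 ± 0.59, adjusted p = 0.00535). In Ad-FAT10 livers Hamp2 stood at 0.550, 0.918, 1.55 and 4.05 CPM under CMC and at 0.965, 1.03, 0.979 and 1.82 CPM under pemafibrate, and these groups overlapped (log2 change -0.58 ± 0.51, adjusted p = 0.453, and 0.23 without Ad-FAT10 CMC mouse 4). The difference between the responses had an unadjusted p of 0.0376 and an adjusted p of 0.429 in edgeR's quasi-likelihood test. Under CMC, Ad-FAT10 changed Hamp2 by -0.50 ± 0.49 on the log2 scale (adjusted p = 0.427), and without Ad-FAT10 CMC mouse 4 by -1.31 (adjusted p = 0.032). Under pemafibrate the Ad-FAT10 mice all lay above the Ad-CTRL mice (log2 change 1.26 ± 0.61, adjusted p = 0.106). That difference was called with only the groups compared (adjusted p = 0.0133), with no filter (0.0235), with library totals (0.0358) and without Ad-FAT10 CMC mouse 4 (0.0464). Each Hamp2 value rests on 6 to 118 counts, and how reads that match both copies were counted is not stated.

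As a share of Hamp and Hamp2 counts together, Hamp2 was 0.211% ± 0.117 and 0.0765% ± 0.0512 in Ad-CTRL livers under CMC and pemafibrate, and 0.399% ± 0.170 and 0.314% ± 0.193 in Ad-FAT10 livers (SD, n = 4). Under pemafibrate the Ad-FAT10 shares (0.191% to 0.602%) all exceeded the Ad-CTRL shares (0.0360% to 0.149%). That gave the smallest p that the exact two-sided permutation test of 4 against 4 allows, 0.0286, and 0.114 adjusted over 4 comparisons. In the other 3 comparisons the shares overlapped, with adjusted p from 0.229 to 0.457 in the exact permutation test.

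**Figure D3:**
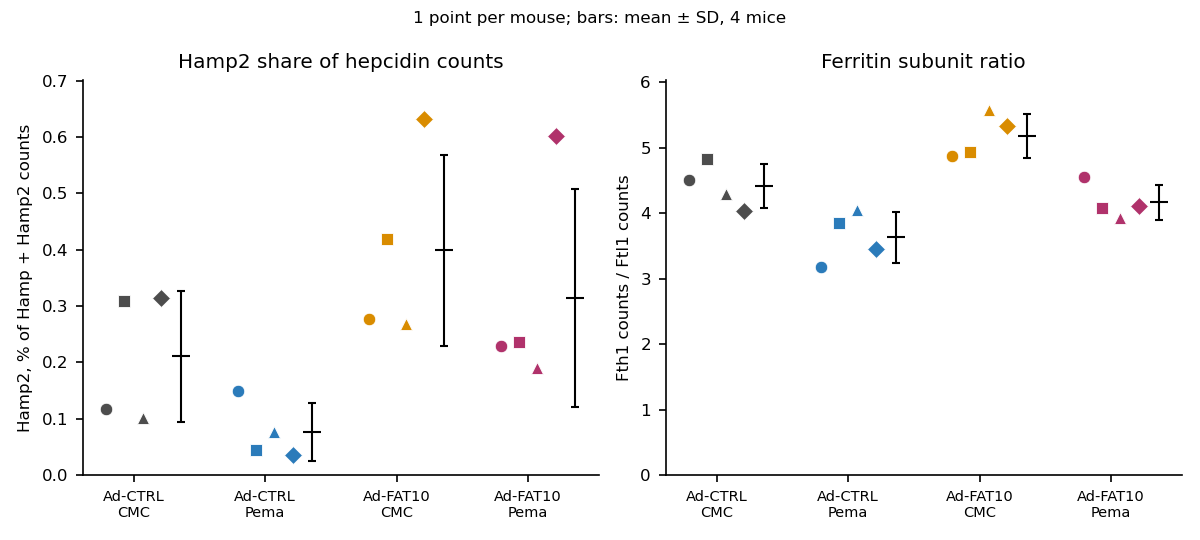
Left, Hamp2 as a percentage of Hamp plus Hamp2 counts; right, Fth1 counts divided by Ftl1 counts; 1 symbol per mouse with the mean ± SD of 4 mice. The Hamp2 share is at most 0.149% in the Ad-CTRL Pema mice, and the ferritin ratio is highest in the Ad-FAT10 CMC mice (4.88 to 5.57).

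Bmp6, the endothelial ligand that conveys iron load to hepatocytes, was lower in Ad-FAT10 livers. It stood at 4.69, 8.22, 5.04 and 6.69 CPM in Ad-CTRL CMC mice and at 4.54, 2.41, 3.79 and 4.15 CPM in Ad-FAT10 CMC mice, groups that did not overlap. Under pemafibrate it stood at 7.62, 7.43, 5.39 and 6.52 CPM in Ad-CTRL and at 3.82, 2.40, 3.53 and 2.86 CPM in Ad-FAT10 mice, again without overlap. Bmp6 fell 1.66-fold under CMC (log2 change -0.73 ± 0.21, adjusted p = 0.0102) and 2.13-fold under pemafibrate (log2 change -1.09 ± 0.21, adjusted p = 0.000593). The fall under CMC was not called with library totals (log2 change -0.43, adjusted p = 0.119) or without Ad-CTRL CMC mouse 2 (-0.56, adjusted p = 0.0506). Pemafibrate gave adjusted p of 0.712 and 0.480 for Bmp6. The Txndc5 gene overlaps Bmp6 on the other strand and held 58484 counts against 1796 for Bmp6, and the strand setting of the counting is not given in the sources used here.

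Liver endothelial markers moved with Bmp6. Of 19 such markers, 14 fell and none rose with Ad-FAT10 under each treatment (median log2 changes -0.80 and -0.70), among them Clec4g and Stab2, receptors of sinusoidal endothelium, with log2 changes of -1.32 and -0.78 under CMC. With library totals 9 and 7 fell and 0 and 2 rose. The summed level of all 19 ran from 421 to 584 CPM in Ad-CTRL CMC and from 272 to 389 CPM in Ad-FAT10 CMC mice, and from 438 to 670.3 and 274 to 438 CPM in the pemafibrate groups. None of these markers was at 0 in a whole group, and their part in the lower Bmp6 was not tested. In whole liver, fewer cells of a type and less RNA per cell cannot be told apart.

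The sensors of transferrin iron changed less. Hfe, whose protein associates with the transferrin receptors, fell 1.25-fold with Ad-FAT10 under pemafibrate (53.3, 42.9, 50.2 and 50.6 CPM in Ad-CTRL against 46.9, 38.8, 37.1 and 35.2 CPM in Ad-FAT10 mice, log2 change -0.32 ± 0.10, adjusted p = 0.0162). The groups overlapped through 1 mouse of each. That call ended with no filter (adjusted p = 0.0554) and without Ad-FAT10 Pema mouse 4 (0.0594). With library totals the sign turned (log2 change 0.037, adjusted p = 0.777), where the median of all genes was 0.34. Under CMC it stood at 46.6, 53.2, 52.6 and 46.5 CPM in Ad-CTRL and at 45.6, 46.2, 38.2 and 40.9 CPM in Ad-FAT10 mice. Every Ad-FAT10 mouse lay below every Ad-CTRL mouse, with a log2 change of -0.22 ± 0.10 (adjusted p = 0.0865). Without Ad-FAT10 CMC mouse 2 the adjusted p was 0.0417, and with library totals the log2 change was 0.068.

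Tfr2, a transferrin receptor of hepatocytes that promotes hepcidin expression, was at 302, 532, 456 and 402 CPM in Ad-CTRL Pema mice and at 312, 301, 302 and 306 CPM in Ad-FAT10 Pema mice. It fell 1.38-fold in that comparison (log2 change -0.47 ± 0.15, adjusted p = 0.0199), although Ad-CTRL Pema mouse 1 lay within the Ad-FAT10 range. The call ended with library totals (log2 change -0.10, adjusted p = 0.556) and without Ad-CTRL Pema mouse 2 (-0.34, 0.0846) or 3 (-0.43, 0.0527). The Ad-CTRL CMC mice held 378, 395, 474 and 517 CPM and the Ad-FAT10 CMC mice 434, 444, 344 and 323 CPM (log2 change -0.19 ± 0.15, adjusted p = 0.327, and 0.093 with library totals). All 4 Ad-FAT10 Pema mice lay below the Ad-FAT10 CMC mice, with a log2 change of -0.34 ± 0.15 and an adjusted p of 0.118.

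Some other genes of BMP and SMAD input to hepcidin changed, in both directions. Of 24 tested, 4 rose and 2 fell with pemafibrate in Ad-CTRL livers (median log2 change -0.04) and 3 rose and 4 fell in Ad-FAT10 livers (-0.14), where 1 or 2 fell without Ad-FAT10 CMC mouse 1, 2 or 3 or Ad-FAT10 Pema mouse 2 or 4. These counts, 6 and 7 of 24 in all, stand beside 30.6% and 25.4% of all genes. Id1, a direct target of BMP signalling, rose from 9.05 ± 1.78 to 31.1 ± 8.72 CPM in Ad-CTRL livers (log2 change 1.78 ± 0.28, adjusted p = 8.78e-05). In Ad-FAT10 livers Id1 rose from 9.66 ± 4.39 to 21.8 ± 4.72 CPM (1.16 ± 0.27, adjusted p = 0.00374). Smad9 rose by 0.98 ± 0.17 and 1.04 ± 0.17 and the BMP receptor Bmpr1a by 0.60 ± 0.09 and 0.31 ± 0.09 on the log2 scale. Among the genes that fell, Acvr1 had a log2 change of -0.45 ± 0.13 in Ad-CTRL livers and Furin of -0.40 ± 0.12 in Ad-FAT10 livers. Smad7, another gene of this list, was at 9.21 to 16.9 CPM under CMC and at 8.59 to 12.7 CPM under pemafibrate in Ad-CTRL livers. In these livers Hamp2 fell and Hamp was not called, and the part of BMP signalling in either was not tested.

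With Ad-FAT10, 10 of the 24 BMP and SMAD genes fell and 3 rose under CMC (median log2 change -0.25), and 13 fell and 1 rose under pemafibrate (-0.38), where 20.2% and 20.5% of all genes fell. With library totals these counts turned to 5 lower and 7 higher, and to 4 lower and 6 higher. Without Ad-CTRL CMC mouse 2, 6 fell under CMC. Bmp2, the other endothelial ligand of hepcidin, fell by 0.84 ± 0.16 under CMC (adjusted p = 0.000464) and by 1.00 ± 0.16 under pemafibrate (adjusted p = 0.000102) on the log2 scale. Tmprss6, a protease that cleaves the BMP co-receptor hemojuvelin and lowers hepcidin, fell by 0.66 ± 0.12 and 0.87 ± 0.12. Smad6, an inhibitor induced by BMP signals, fell by 0.83 ± 0.15 and 0.77 ± 0.15. The falls of Bmp2, Tmprss6 and Smad6 were called in all 22 alternatives, library totals included. Fst, which encodes an activin-binding protein, rose with Ad-FAT10 under pemafibrate by 1.96 ± 0.34.

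Of 28 tested genes of the IL-6, STAT3 and acute phase list, 11 fell with pemafibrate and none rose in Ad-CTRL livers (median log2 change -0.53), where 14.4% of all genes fell. In Ad-FAT10 livers 18 fell and none rose (-0.90), where 12.5% of all genes fell. The first count was 6 or 7 without Ad-CTRL CMC mouse 1 or 3 or Ad-CTRL Pema mouse 1, 3 or 4. Il6ra, the IL-6 receptor, fell from 66.4 ± 7.43 to 28.5 ± 6.26 CPM in Ad-CTRL livers (log2 change -1.22 ± 0.17, adjusted p = 2.59e-05) and by 1.03 ± 0.17 in Ad-FAT10 livers (adjusted p = 0.000195). Hamp was not called in either, and the part of this pathway in its level was not tested.

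With Ad-FAT10 under CMC, 12 of these 28 genes rose and 2 fell, against 22.5% and 20.2% of all genes, while Hamp fell. The acute phase genes Saa3, Lcn2 and Lbp rose by 2.74 ± 0.40, 3.02 ± 0.51 and 0.90 ± 0.14 on the log2 scale. Under pemafibrate 6 rose and 5 fell (median log2 change -0.04). With library totals 14 rose and 1 fell under CMC, and 9 rose and 1 fell under pemafibrate. Markers of neutrophils, which make Lcn2 themselves, had summed levels of up to 21.1 CPM in Ad-CTRL CMC and up to 165 CPM in Ad-FAT10 CMC mice, in groups that did not overlap, and their part in these rises was not tested.

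**Figure D4:**
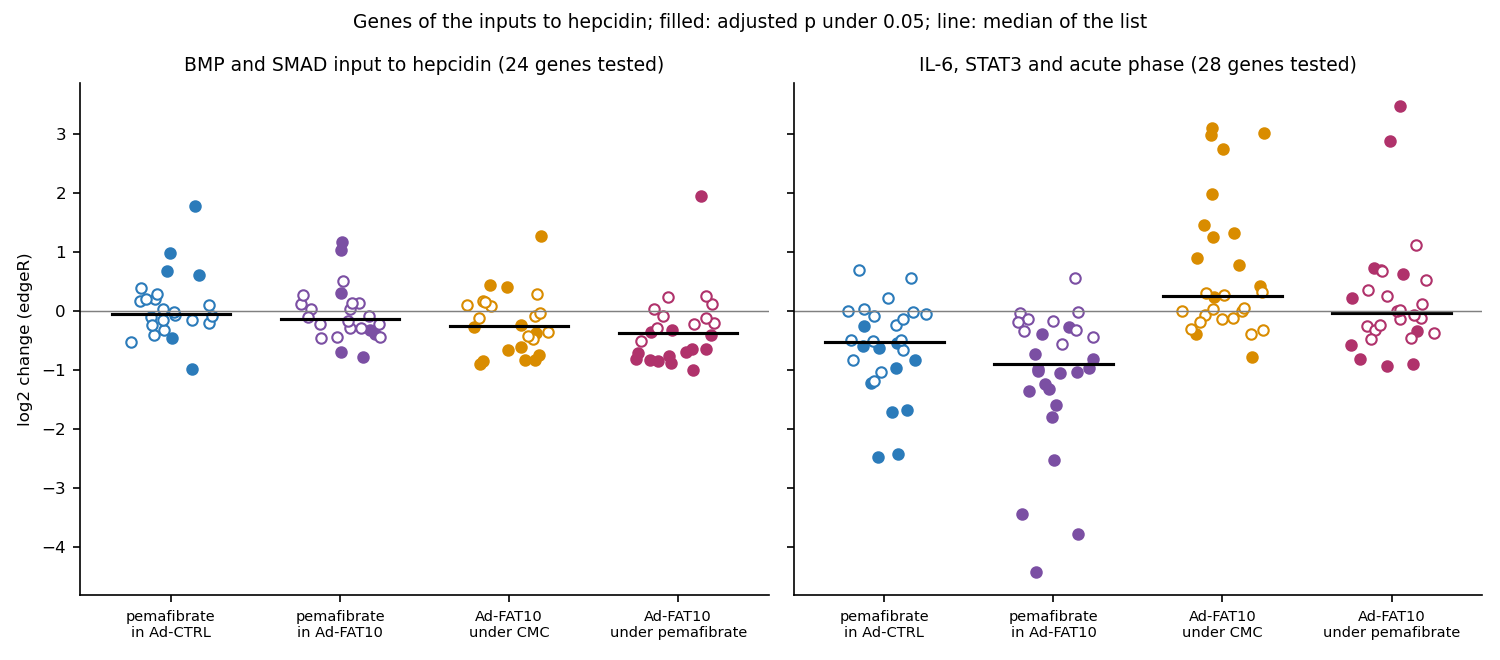
Log2 change (vertical axis) of each tested gene of the BMP and SMAD list (left, 24 genes) and of the IL-6, STAT3 and acute phase list (right, 28 genes) in 4 comparisons; filled points have an adjusted p under 0.05 and the black line is the median. The acute phase genes have medians of -0.53 and -0.90 with pemafibrate, and the BMP genes of -0.25 and -0.38 with Ad-FAT10 (0.037 and -0.019 with library totals).

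Several genes differed between Ad-FAT10 CMC mice 1 and 2 and mice 3 and 4. The pattern was noticed after the values were seen and was not tested. By chi-square per gene between 2 libraries, over genes with at least 20 counts, mouse 1 was nearer to mouse 3 (34.83) than to mouse 2 (43.64). Ad-FAT10 Pema mice 1 and 3 lay further apart (119) than any 2 Ad-FAT10 CMC mice (at most 86.56). Ad-FAT10 CMC mice 3 and 4 had the higher Hamp (578 and 638 against 199 and 218 CPM), the higher Fth1 (1624 and 1704 against 1119.8 and 1190.2 CPM) and the higher Ftl1 (291 and 319.8 against 229.5 and 241 CPM). Mice 1 and 2 had the higher Tfr2 (434 and 444 against 344 and 323 CPM) and Trf (13421 and 17936 against 10567 and 10272 CPM). Id1 was higher where Hamp was, at 14.5 and 12.2 CPM in mice 3 and 4 and 5.37 and 6.58 CPM in mice 1 and 2. So was Smad7, at 8.21, 7.80, 10.3 and 13.4 CPM in mice 1 to 4. The BMP ligands were not: Bmp6 was at 4.54, 2.41, 3.79 and 4.15 CPM and Bmp2 at 8.81, 5.39, 6.29 and 7.485 CPM. Both were highest in mouse 1, which had the lowest Hamp. The serum amyloid gene Saa2 was at 565, 6516, 265 and 376 CPM in mice 1 to 4, highest in a mouse with low Hamp. These genes were chosen with their values seen, and no input to hepcidin is read from them. The summed level of neutrophil markers was 105 and 165 CPM in mice 1 and 2 and at most 47.4 CPM in mice 3 and 4, and its part in the split was not tested.

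Transferrin and its uptake receptor moved in opposite directions with pemafibrate. Trf, which encodes the iron carrier of plasma, stood at 15288, 17766, 18074 and 18636 CPM in Ad-CTRL CMC mice and at 11451, 11242, 12416 and 11802 CPM in Ad-CTRL Pema mice. In Ad-FAT10 livers it stood at 13421, 17936, 10567 and 10272 CPM under CMC and at 5831, 8193, 9889 and 8181 CPM under pemafibrate. The CMC and pemafibrate mice did not overlap in either adenovirus group. The falls were 1.49-fold (log2 change -0.57 ± 0.18, adjusted p = 0.0232) and 1.63-fold (-0.70 ± 0.18, adjusted p = 0.0084). The first was lost by a small margin without Ad-CTRL CMC mouse 3 (adjusted p = 0.0527) or 4 (0.0585) or Ad-CTRL Pema mouse 2 (0.0548) or 4 (0.0514). The second was lost without Ad-FAT10 CMC mouse 2 (log2 change -0.49, adjusted p = 0.0503) and with only the groups compared (-0.67, 0.0651).

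Trf fell 1.46-fold with Ad-FAT10 under pemafibrate, without overlap (log2 change -0.55 ± 0.18, adjusted p = 0.0228). That call ended with library totals (log2 change -0.18, adjusted p = 0.397) and without Ad-CTRL Pema mouse 3 (adjusted p = 0.0534) or Ad-FAT10 Pema mouse 1 (0.068). Under CMC the change was -0.42 ± 0.18 (adjusted p = 0.0734) with means of 17441 ± 1479.8 and 13049 ± 3554 CPM. It was called with DESeq2 (adjusted p = 0.0309), without Ad-FAT10 CMC mouse 2 (log2 change -0.63, adjusted p = 0.00791) and without Ad-FAT10 Pema mouse 1 (0.0492). Hepatocyte markers fell alongside: 9 and 10 of 18 fell with pemafibrate in Ad-CTRL and Ad-FAT10 livers, and 12 and 13 of 18 with Ad-FAT10 under CMC and pemafibrate, with none that rose. With library totals 7 and 6 fell and 1 and 2 rose with Ad-FAT10.

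Tfrc, the receptor through which most cells take up transferrin, rose with pemafibrate in both adenovirus groups. It stood at 11.6, 15.7, 11.1 and 9.98 CPM in Ad-CTRL CMC mice and at 41.1, 24.8, 36.1 and 36.9 CPM in Ad-CTRL Pema mice, with no overlap. In Ad-FAT10 livers it stood at 27.1, 26.8, 20.5 and 39.6 CPM under CMC and at 42.8, 47.1, 30.6 and 64.0 CPM under pemafibrate, where 1 CMC mouse lay above 1 pemafibrate mouse. The rise was 2.87-fold in Ad-CTRL livers (log2 change 1.52 ± 0.23, adjusted p = 5.75e-05) and 1.62-fold in Ad-FAT10 livers (0.69 ± 0.22, adjusted p = 0.0236). The first was called in all 22 alternatives. The second was lost without Ad-FAT10 CMC mouse 1 (adjusted p = 0.0581), 2 (0.0544) or 3 (0.0792) or Ad-FAT10 Pema mouse 4 (log2 change 0.49, adjusted p = 0.108). The responses differed by -0.82 ± 0.31 on the log2 scale, with an unadjusted p of 0.0163 and an adjusted p of 0.353 in edgeR's quasi-likelihood test.

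Tfrc also rose with Ad-FAT10 under CMC, 2.35-fold and without overlap (log2 change 1.23 ± 0.23, adjusted p = 0.000362), and this was called in all 22 alternatives. Under pemafibrate the change was 0.41 ± 0.21 (adjusted p = 0.137), and it was called with library totals (log2 change 0.76, adjusted p = 0.00872), with no filter (0.44, adjusted p = 0.0328) and without Ad-FAT10 Pema mouse 3 (0.56, adjusted p = 0.0393). All 16 proliferation genes rose with Ad-FAT10 under each treatment, to summed levels of 393 to 591 CPM in Ad-FAT10 CMC mice from 114 to 127 CPM in Ad-CTRL CMC mice. With pemafibrate 7 of the 16 fell and 1 rose in Ad-CTRL livers, where Tfrc rose, and 10 fell in Ad-FAT10 livers. Without Ad-CTRL Pema mouse 2 the 7 became 4. Erythroid cells carry much Tfrc, and the summed level of 15 erythroid markers was 237 to 302 CPM in the Ad-CTRL CMC group and 172 to 268 CPM in Ad-CTRL livers under pemafibrate, and in Ad-FAT10 livers 123 to 218 CPM under CMC and 118 to 220.1 CPM under pemafibrate. The part of dividing or erythroid cells in the Tfrc values was not tested.

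Slc40a1, which encodes ferroportin, the iron exporter that hepcidin removes, was higher in Ad-FAT10 livers. It stood at 113, 177, 195 and 182 CPM in Ad-CTRL CMC and at 220.0, 221, 220.2 and 233 CPM in Ad-FAT10 CMC mice. Under pemafibrate it stood at 159, 132, 186 and 186 CPM in Ad-CTRL and at 223, 245, 256 and 234 CPM in Ad-FAT10 mice. The Ad-FAT10 mice lay above all Ad-CTRL mice in both treatments. The rise was 1.34-fold under CMC (log2 change 0.43 ± 0.14, adjusted p = 0.0199) and 1.45-fold under pemafibrate (0.53 ± 0.14, adjusted p = 0.00523). Without Ad-CTRL CMC mouse 1, the lowest of all, the rise under CMC was 0.28 on the log2 scale (adjusted p = 0.0567). The rise under pemafibrate was called in all 22 alternatives. Pemafibrate gave adjusted p of 0.982 and 0.664 for Slc40a1.

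Macrophages, which recycle iron from red cells, carry much Slc40a1, and their markers changed strongly with Ad-FAT10. Of 14 monocyte and macrophage markers, 14 rose under CMC and 13 under pemafibrate (median log2 changes 1.30 and 1.32). Their summed level ran from 361 to 515 CPM in Ad-CTRL CMC and from 907 to 1276 CPM in Ad-FAT10 CMC mice, and from 370.5 to 453 and 688 to 1197 CPM in the pemafibrate groups. Of 12 Kupffer cell markers, 5 fell and 3 rose under CMC and 6 fell and 5 rose under pemafibrate. Under CMC those that fell had log2 changes of -2.89 (Clec4f), -3.55 (Timd4), -3.11 (Vsig4), -3.28 (the haemoglobin receptor Cd163) and -1.33 (Marco), and those that rose of 1.42 (Il18bp), 0.77 (Cd5l) and 0.51 (C1qb). Their summed level was 507 to 700.2 CPM in Ad-CTRL CMC and 603 to 762 CPM in Ad-FAT10 CMC mice, and 362 to 627 and 432 to 829 CPM in the pemafibrate groups, so that the groups overlapped. With library totals 4 fell and 5 rose under CMC, and 4 fell and 6 rose under pemafibrate. No marker of either list was at 0 in a whole group. The part of these cells in the Slc40a1 rise was not tested.

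**Figure D5:**
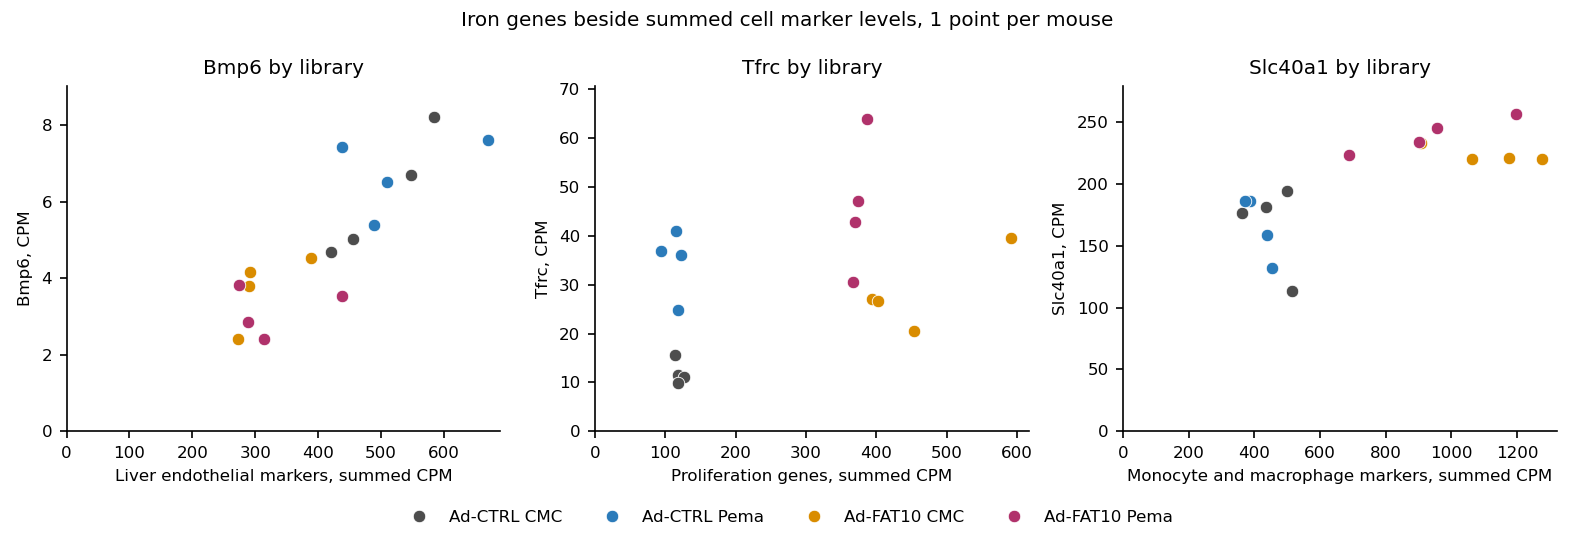
Level of Bmp6, Tfrc and Slc40a1 in CPM (vertical axes) against the summed CPM of liver endothelial markers, proliferation genes and monocyte and macrophage markers (horizontal axes), 1 point per mouse, coloured by group. The Ad-CTRL Pema mice have Tfrc at 24.8 to 41.1 CPM with proliferation sums of 94.4 to 122 CPM, and the Ad-FAT10 mice have the higher macrophage sums and the higher Slc40a1.

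Neither ferritin subunit was called in any comparison. Fth1, the heavy subunit that oxidises iron, had group means of 1399 ± 84.4 and 1410.4 ± 73.1 CPM in Ad-CTRL livers under CMC and pemafibrate, and 1409.5 ± 297 and 1403 ± 103 CPM in Ad-FAT10 livers (SD, n = 4). With library totals the change with Ad-FAT10 under pemafibrate was 0.35 (adjusted p = 0.0436), beside a median of 0.34 over all genes. Ftl1, the light subunit that aids mineral formation, stood at 301, 306, 303 and 362 CPM in Ad-CTRL CMC and at 471, 366, 349.7 and 382 CPM in Ad-CTRL Pema mice. In Ad-FAT10 livers it stood at 229.5, 241, 291 and 319.8 CPM under CMC and at 302, 376, 327 and 346 CPM under pemafibrate. These groups overlapped, with log2 changes of 0.30 ± 0.12 (adjusted p = 0.073) and 0.32 ± 0.12 (adjusted p = 0.0662). The change in Ad-FAT10 livers was called with DESeq2 (adjusted p = 0.0426) and without Ad-FAT10 CMC mouse 4 (0.0242), Ad-CTRL Pema mouse 1 (0.045) or Ad-FAT10 Pema mouse 1 (0.0451), and that in Ad-CTRL livers without Ad-CTRL CMC mouse 4 (0.0447).

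Because the subunits share 1 protein shell, their ratio was taken within each library. Fth1 counts were 4.50, 4.83, 4.30 and 4.03 times Ftl1 counts in Ad-CTRL CMC mice and 3.18, 3.86, 4.04 and 3.45 times in Ad-CTRL Pema mice. In Ad-FAT10 livers the ratio was 4.88, 4.94, 5.57 and 5.33 under CMC and 4.55, 4.07, 3.93 and 4.11 under pemafibrate. The log2 ratio was lower with pemafibrate by 0.285 and 0.314 in Ad-CTRL and Ad-FAT10 livers, and higher with Ad-FAT10 by 0.231 and 0.202 under CMC and pemafibrate. The exact two-sided permutation test gave p of 0.0571, 0.0286, 0.0286 and 0.0571 in that order, and all 4 were 0.0571 after adjustment over the 4 comparisons. Pemafibrate and CMC mice did not overlap in Ad-FAT10 livers, nor did Ad-FAT10 and Ad-CTRL mice under CMC. Genes named as ferritin pseudogenes held 2 to 1119 counts over all libraries, and adding them to their parent gene gave the same 4 p-values for the ratio.

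Of 18 tested genes of iron uptake, reduction and export, 6 fell and 1 rose with pemafibrate in Ad-CTRL livers, and 8 fell and none rose in Ad-FAT10 livers. These are 38.9% and 44.4% of the list, against 30.6% and 25.4% of all genes. The 8 became 4 or 5 without Ad-FAT10 CMC mouse 2 or 3 or Ad-FAT10 Pema mouse 3 or 4, and 4 with no filter or with only the groups compared. Slc39a14, an importer of iron not bound to transferrin, fell by 0.52 ± 0.14 in Ad-CTRL and by 0.78 ± 0.14 in Ad-FAT10 livers on the log2 scale, and the ferritin receptor Scara5 by 2.03 ± 0.49 and 2.13 ± 0.47. Slc11a2, the endosomal iron transporter DMT1 that works with Tfrc, rose with Ad-FAT10 under CMC by 0.79 ± 0.11 (adjusted p = 3.16e-05). In all 4 rose and 2 fell with Ad-FAT10 under CMC, and 2 rose and 4 fell under pemafibrate, against 8 higher and 0 lower, and 7 higher and 1 lower, with library totals. The shares called, 33.3% in each, were below the 42.6% and 41.7% of all genes.

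Of 15 tested genes of heme synthesis, which uses iron, 10 fell with Ad-FAT10 under CMC and 8 under pemafibrate and none rose (median log2 changes -0.42 and -0.36), whereas with library totals 2 fell and 1 rose in each. Of all genes 20.2% and 20.5% fell. Alas2, the erythroid form of the first enzyme, fell by 0.88 ± 0.16 and 1.37 ± 0.16. Of 8 tested erythroid markers, Alas2 among them, 3 fell and 1 rose under CMC, and 2 fell and 0 rose under pemafibrate. The one that rose, Slc4a1, had a log2 change of 2.47 ± 0.51. With pemafibrate 4 genes of heme synthesis rose and 3 fell in each adenovirus group. Among them Clpx, a mitochondrial unfoldase that acts on the first enzyme, was up by 1.04 ± 0.11 and 0.72 ± 0.11. Hmox1, the heme oxygenase that frees iron from heme, rose with Ad-FAT10 by 1.26 ± 0.19 under CMC (adjusted p = 7.19e-05) and by 0.89 ± 0.19 under pemafibrate. Among genes of iron sensing and ferritin turnover, 4 rose and 1 fell with pemafibrate in Ad-CTRL livers. In Ad-FAT10 livers 2 rose and 1 fell. With Ad-FAT10 3 rose and 2 fell under CMC, and 2 rose and 5 fell under pemafibrate. Of all genes, 30.6%, 25.4%, 42.6% and 41.7% were called in these 4 comparisons, in the same order. Nothing particular to this list is read from its counts. Without Ad-CTRL Pema mouse 1 the first count became 7 higher and 1 lower. The last became 0 higher and 3 lower without Ad-FAT10 Pema mouse 2, and 1 higher and 3 lower without Ad-FAT10 Pema mouse 4. Hif1a rose in all 4 comparisons, with log2 changes of 0.54 ± 0.08, 0.42 ± 0.08, 0.37 ± 0.08 and 0.25 ± 0.08 in that order. Egln3 rose with pemafibrate (0.55 ± 0.16 and 0.58 ± 0.16) and fell with Ad-FAT10 (-0.66 ± 0.16 and -0.63 ± 0.16). Ireb2, which encodes an iron regulatory protein, fell with Ad-FAT10 under pemafibrate by 0.49 ± 0.11 (adjusted p = 0.00173). Aco1 and Ncoa4 were called in no comparison.

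The genes whose log2 CPM followed a member most closely over the 16 libraries are given as a description, since these libraries share their groups. For Tfrc they were Prrg4, Spc25, Mtnr1a, Nup50 and Tfdp1 (Pearson r 0.908 to 0.928, and 0.439 to 0.726 for deviations from group means). For Slc40a1 they were Gys1, Zfp568, Tmem164, Abcb1a and Rcc2 (r 0.882 to 0.924, within groups 0.652 to 0.830). For Trf they were Tshz2, Hal, Sorbs3, Kng2 and Fgfr1 (r 0.937 to 0.950, within groups 0.741 to 0.841). For Hamp they included Zfp869, Bcl7a, Zfp60 and Ces2a, with r of 0.846 to 0.861 and 0.461 to 0.731 within groups.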

How the data were processed

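RNA was measured by sequencing of poly(A)-selected, strand-marked (dUTP) libraries from 16 livers on DNBSEQ, per the labels' protocols. The authors deposited, for every mouse, whole-number counts by Ensembl identifier, not normalized. Per the submitters' processing notes the build was GRCm39 and the tools were DESeq2 (versions 1.36.0 and 2.11.40.6) and STAR 2.7.6. How reads were counted, with which annotation and strand setting, is not stated there. Symbols came from GENCODE M21 (GRCm38), and 52083 of 55416 identifiers (94.0%) matched. Groups and replicate numbers came from the titles. No pair of libraries was identical, and the labels give no batch.

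Counts were fitted in R 4.3.3 with edgeR 4.0.16: filterByExpr, TMM, 1 mean per group over all 16 libraries (12 residual degrees of freedom) and quasi-likelihood tests, with Benjamini-Hochberg adjustment over 14770 genes and a threshold of 0.05. The SE is the absolute log2 change divided by the square root of F, and so restates the test. The fit was also run on counts simulated from its own mean levels and spreads. That run cannot show how the fit behaves with unequal spreads between groups or with the shift in scaling seen here. Alternatives were DESeq2 size factors in edgeR, library totals, no filter, DESeq2 1.42.0, only the groups compared, the replicate number as a block, and leaving out each library. The Hamp2 share and the Fth1 to Ftl1 log2 ratio were tested by exact permutation. The floor of 3 counts only expresses depth in CPM. It was not applied to any value and does not cover counting error.

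The members and the gene lists were chosen with earlier results of these data known. Named genes are all members, up to 4 called genes with the smallest p per list and comparison, and the 5 genes most like each of 4 members, drawn from genes averaging 1 log2 CPM or more and, as a restriction beyond the rule, without predicted (Gm) or Riken (Rik) names, of which 1 is not reported here. Outside that rule, chosen after their values were seen, are Slc39a14 in Ad-CTRL livers, Hmox1 under pemafibrate, Marco, Il18bp, Cd5l and C1qb with Ad-FAT10, Aco1, Ncoa4, Ubd and Cyp4a14 as checks of the labels, and Id1, Smad7, Bmp2 and Saa2 by mouse. Promoters came from RefSeq (GRCm38.p6), and GENCODE M21 gave transcripts, exon lengths and overlapping genes. No protein table was used.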

Additional observations from a re-analysis of the deposited data

Results flagged for a closer look

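Among 48 sets of 4 mice (the 10 genes, the Hamp2 share and the ferritin ratio in each group), 4 held a mouse far from the other 3 by Dixon's test at the 95% level. Chance flags about 1 in 20 such sets. In the Ad-CTRL CMC group Ftl1 was 362 CPM in mouse 4 and 301 to 306 CPM in the others. In the Ad-FAT10 CMC group Slc40a1 was 233 CPM in mouse 4 and 220.0 to 221 CPM in the others, a narrow range. In the Ad-FAT10 Pema group Hamp2 was 1.82 CPM in mouse 4 and 0.965 to 1.03 CPM in the others, and the same mouse had a Hamp2 share of 0.602% against 0.191% to 0.236%.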

How the results depend on the processing

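With only the groups compared, 1 member was called for pemafibrate in Ad-FAT10 livers in place of 2. With library totals the Ad-FAT10 changes of Hfe, Fth1 and Ftl1 under pemafibrate turned to 0.037, 0.35 and 0.14 on the log2 scale, and those of Tfr2, Ftl1 and Hfe under CMC to 0.093, 0.066 and 0.068; Hamp with pemafibrate in Ad-FAT10 livers turned to -0.0033. The interaction called 93 genes with no filter and 116 with DESeq2, against 23, and no member in any. Leaving out 1 library gave 2 to 3 and 0 to 3 members called for pemafibrate in Ad-CTRL and Ad-FAT10 livers, 3 to 6 and 3 to 7 for Ad-FAT10 under CMC and pemafibrate, and 11 to 36 genes for the interaction; the 0 came without Ad-FAT10 CMC mouse 2 and the lower 3 of the last pair without Ad-CTRL Pema mouse 3. The log2 ratio of Fth1 to Ftl1 then ran from -0.338 to -0.223 and from -0.357 to -0.278 with pemafibrate, and from 0.188 to 0.275 and from 0.140 to 0.255 with Ad-FAT10. Of the values for members under alternatives, 980 kept direction and side of the threshold, 30 lost a call, 19 gained one and 61 turned sign, all but 2 of these (Hfe and Fth1 above) with no call in either fit. The cause was not tested. Fth1, near 0 throughout, turned sign with pemafibrate in Ad-CTRL livers (-0.0051 with DESeq2 size factors, -0.070 with library totals, -0.0010 with DESeq2) and in Ad-FAT10 livers (0.0065 with no filter, 0.00015 with the replicate block, 0.020 with only the groups compared). It also did so with Ad-FAT10 under CMC (-0.013 with DESeq2 size factors, -0.0066 with DESeq2) and under pemafibrate (0.023 with no filter, 0.0091 with only the groups compared), and in the interaction (0.040 with library totals, 0.0019 with no filter). Slc40a1 with pemafibrate in Ad-CTRL livers was 0.0041 with the replicate block. Leaving out 1 library, log2 changes with pemafibrate in Ad-CTRL livers ran from -0.153 to 0.0885 for Slc40a1, from -0.190 to 0.0724 for Tfr2, from -0.052 to 0.047 for Hfe and from -0.0218 to 0.0443 for Fth1. In Ad-FAT10 livers they ran from -0.861 to 0.232 for Hamp2, from -0.196 to 0.331 for Hamp and from -0.103 to 0.0971 for Fth1. With Ad-FAT10 those of Fth1 ran from -0.092 to 0.11 under CMC and from -0.0523 to 0.0333 under pemafibrate, and interactions from -0.0533 to 0.116 for Ftl1, from -0.246 to 0.106 for Trf and from -0.114 to 0.0855 for Fth1. Same-numbered mice did not deviate together (r from -0.172 to 0.172, and in 9 of 48 cases a library correlated best with its own number), so the numbers were not taken to pair mice. With the replicate number as a block, 3, 2, 4, 5 and 0 members were called in the 5 comparisons, against 3, 2, 4, 6 and 0. The 1 lost was Hamp for Ad-FAT10 under pemafibrate (adjusted p = 0.058). Exchange within numbers cannot give a p below 0.125 in the exact permutation tests of the 2 ratios. The fewest counts a library were those of Hamp2 (6 to 118) and Bmp6 (63 to 178). In the main edgeR fit the p-values rest on 1 estimate of the spread between mice for each gene, shared by all 4 groups. They do not measure the spread of the compared groups alone. The exact permutation tests use only the 4 mice of each group compared.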
